A study of Mus musculus with 6 samples.

Results

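The insulin-like growth factor (IGF) family was followed through single cell RNA sequencing data of the proximal pulmonary artery (PA) of young and old mice. The family was taken by gene symbol as 10 genes of the 53647 listed: the ligands Igf1 and Igf2, the receptors Igf1r and Insr, and the binding proteins Igfbp2, Igfbp3, Igfbp4, Igfbp5, Igfbp6 and Igfbp7. Across the 15311 cells kept, 9 of the 10 genes had counts, and Igf2 had none. The clearest pattern of the family lay within the fibroblasts (FBs). In old PAs, FBs with the adventitial gene Pi16 carried more Igfbp6 and FBs without it more Igf1 and Igfbp7. These 3 calls were lost under a stricter cell filter, with the same signs. Igfbp5 and Igfbp3 showed still wider gaps, the first past the threshold only under some settings and the second below the gene filter. Across ages, no member passed the test after adjustment in the FBs, SMCs, endothelial cells, perivascular macrophages or airway cells, the types in which members could be tested. In simulated data these fits recovered from 0% (SMCs) to 30% (airway cells) of 4-fold changes, which limits what this absence of calls can show.

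IGF1 and IGF2 are secreted peptides that bind the IGF1 receptor, a tyrosine kinase, which signals through the receptor substrates to PI3K and Akt and promotes growth and survival. The insulin receptor, encoded by Insr, is its close relative. The classical binding proteins hold IGFs outside the cell, where they prolong their life, keep them from the receptor or, once cut by proteases, release them; Igfbp7 encodes a related protein with low affinity for IGFs. In arteries, the family is known as a regulator of smooth muscle cell (SMC) growth and of the matrix, and macrophages (MΦs) and FBs are known sources of IGF1.

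The mice were wild-type C57BL/6J animals. The young group held 2 libraries of 3 months, replicate 1 from a male by the study's account and replicate 2 from a female. The old group held 4 libraries of 20, 24, 27 and 28 months, the last from a female and the others from males by the study's account. No agent or allele set the groups apart. The main PA was taken out with surrounding tissue and digested with collagenase and elastase, so airway, mesothelial and lymphoid cells came with the wall. Each library holds the cells of 1 mouse, and each unique molecular identifier (UMI) marks 1 captured RNA molecule.

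Depth differed widely between libraries. Total UMIs ran from 6355125 to 50436562 per library, and median UMIs per kept barcode were 801.5 to 841 in the 2 young libraries and the 24 month library, 2162 at 20 months, and 5465 and 8150 at 28 and 27 months. The 2 young libraries and the 24 month library shared 131 to 215 barcodes in each pair, where other pairs shared at most 4; most of the kept cells with such barcodes (558) were airway epithelial. The 20 month library, listed as male, carried 2411 UMIs of the female gene Xist, 2 UMIs each of the Y genes Kdm5d and Eif2s3y, 15 of Uty and 209 of Ddx3y, where the female libraries held 11 and 2 UMIs of Ddx3y, and its SMCs and MΦs formed clusters of their own. The SMCs of the 24 month library were 10 cells, in which the summed SMC markers stood at 9316 counts per 1000000 UMIs (CPM) against 29740 to 46670 in the other libraries, below the alveolar epithelial markers of the same cells, at 28910 CPM against 0 to 14.1 CPM elsewhere. Erythroid (9851 CPM), cardiomyocyte (8031 CPM) and airway markers (7174 CPM) were also found in these cells, which go against the name SMC.

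Levels are given as CPM, the UMIs of a gene per 1000000 UMIs of that cell type in that library, for each library with at least 10 cells of the type. FBs (1768 cells), SMCs (3539), endothelial cells (ECs, 2103), perivascular MΦs (1569), B cells (2206), airway epithelial cells (1369) and mesothelial cells (799) were the largest types. Each name stands for cells like that type by their markers, as the labels name no cell types. As a background, the same genes were counted in near-empty barcodes of at most 100 UMIs, which hold free RNA. A level at or below that of its own library's near-empty barcodes was not read as expression. Members were left out of the clustering that set the cell types, so their levels did not shape it.

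The promoters of Igf1, Igfbp5, Igfbp6 and Igfbp7 are shown because these members were opposed between the FB classes, Igfbp5 and Igfbp6 on one side and Igf1 and Igfbp7 on the other. RefSeq windows of GRCm38.p6, from 250 bases before to 50 bases after the start, were found for 9 of the 10 members. Those of Igf1 (chr10:87860861-87861160, plus strand), Igfbp5 (chr1:72874816-72875115, minus), Igfbp6 (chr15:102143936-102144235, plus) and Igfbp7 (chr5:77407996-77408295, minus) read as follows, 5′ to 3′ along the gene. Capitals mark matches on either strand to TATAAA, to GGGCGG, and to TGACTCA or TGAGTCA.
Igf1: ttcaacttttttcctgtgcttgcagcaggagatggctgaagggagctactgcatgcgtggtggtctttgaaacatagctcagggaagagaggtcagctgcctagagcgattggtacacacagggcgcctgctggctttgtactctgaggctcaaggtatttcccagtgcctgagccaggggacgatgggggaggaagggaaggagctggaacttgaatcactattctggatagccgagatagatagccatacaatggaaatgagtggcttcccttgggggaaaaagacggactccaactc
Igfbp5: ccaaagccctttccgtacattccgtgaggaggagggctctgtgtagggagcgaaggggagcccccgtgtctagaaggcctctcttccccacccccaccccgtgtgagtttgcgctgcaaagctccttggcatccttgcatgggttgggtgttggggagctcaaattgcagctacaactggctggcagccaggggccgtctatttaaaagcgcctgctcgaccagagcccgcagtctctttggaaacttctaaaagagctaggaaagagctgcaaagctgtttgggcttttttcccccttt
Igfbp6: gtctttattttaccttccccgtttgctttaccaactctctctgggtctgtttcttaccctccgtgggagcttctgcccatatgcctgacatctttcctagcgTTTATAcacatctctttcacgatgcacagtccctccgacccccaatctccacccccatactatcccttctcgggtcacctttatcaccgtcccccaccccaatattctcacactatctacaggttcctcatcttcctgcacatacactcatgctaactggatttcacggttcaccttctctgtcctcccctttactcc
Igfbp7: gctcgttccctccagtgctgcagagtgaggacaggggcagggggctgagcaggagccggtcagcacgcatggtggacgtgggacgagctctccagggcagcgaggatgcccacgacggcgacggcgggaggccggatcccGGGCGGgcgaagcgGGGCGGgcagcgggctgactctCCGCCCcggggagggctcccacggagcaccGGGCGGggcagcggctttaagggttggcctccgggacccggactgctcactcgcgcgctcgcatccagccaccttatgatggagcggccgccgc
The Igfbp7 window held 4 matches to GGGCGG, a motif found in 35.7% of the 32851 promoters of the same length. The Igfbp6 window held 1 match to TATAAA, found in 13.6% of promoters, and the Igf1 and Igfbp5 windows held none of the motifs. TGACTCA or TGAGTCA was found in 5.20% of promoters and in none of these 4. The GC content was 52.3% for Igf1, 56.3% for Igfbp5, 49.7% for Igfbp6 and 73.3% for Igfbp7, beside a median of 52.7% over all promoters. The data hold counts of transcripts and nothing on factor binding, so these matches describe letters only.

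Igf1, the circulating and local growth factor, was highest in FBs, at 266 ± 97.2 CPM (SD, n = 6 libraries). The young FBs held 213 and 287 CPM and the old FBs 128, 297, 420.1 and 252 CPM at 20, 24, 27 and 28 months. All 6 values were above the near-empty barcodes (22 to 60.4 CPM), and the age groups overlapped. Perivascular MΦs came next, at 168 ± 189 CPM (n = 6), a spread larger than the mean. Mesothelial cells followed at 149 ± 109 CPM (n = 5), and lymphatic ECs held 50.6 and 129 CPM at 27 and 28 months, the first below its near-empty level of 60.4 CPM. The ranges of FBs, MΦs, mesothelial cells and lymphatic ECs overlapped. In ECs the level was 0 to 17.5 CPM, in airway cells 0 to 9.45 CPM and in SMCs 0 to 54.5 CPM, at or below the near-empty barcodes in all libraries but the SMCs of 20 months. Igf1 was thus above the background in every library of FBs and mesothelial cells and in 5 of 6 libraries of MΦs.

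Igf2, the fetal growth factor of the pair, was listed at 0 in all 6 libraries, in kept cells and in near-empty barcodes. A count of 0 in the 64928846 UMIs of the kept cells would allow at most 0.0462 CPM. The gene lies on chromosome 7 at 142650766 to 142666816 (minus strand, GRCm38, GENCODE M21), and 3596 of its 5723 exonic bases (62.8%) are also exonic bases of Gm49394, a gene on the same strand that starts at 142650769 and ends at 142669942. How reads on both genes were counted is not given in the sources used here, so the 0 was not read as absence.

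Igf1r, the receptor for both ligands, was found above the near-empty level in every library of SMCs, ECs, lymphatic ECs, mesothelial cells, airway cells and neutrophils. Neutrophils stood highest, with 793 CPM at 24 months and 881 CPM at 28 months, above the range of each other type but T cells. Mesothelial cells held 345 ± 32.5 CPM (n = 5), SMCs 338 ± 113 CPM (n = 6), FBs 244 ± 99.9 CPM (n = 6), ECs 239 ± 80.9 CPM (n = 6) and airway cells 233 ± 19.7 CPM (n = 6). The range of mesothelial cells (302 to 380.1 CPM) did not overlap that of airway cells (200.1 to 254 CPM); each of the other pairs overlapped. T, NK and innate lymphoid cells (ILCs) ranged most, from 23.0 CPM in young replicate 1 to 825 CPM at 27 months. Perivascular MΦs held 46.1 to 172 CPM, above the near-empty level in 3 of 6 libraries.

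Insr was highest in lymphatic ECs, with 278 CPM at 27 months and 384 CPM at 28 months, values above the range of every other type. ECs held 140.2 ± 64.5 CPM and SMCs 126 ± 90.9 CPM (n = 6 each), and these overlapped. ECs were above the near-empty level (34.8 to 72.4 CPM) in 6 of 6 libraries and SMCs in 5 of 6, the exception being the 10 cells of 24 months with no count. In FBs, at 50.2 ± 15.4 CPM, 3 of 6 libraries passed the near-empty level. Both receptors were therefore measured in the cells of the intima and media, with Insr in FBs close to the background.

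Of the 264364 member UMIs in the kept cells, 87.3% came from the binding proteins. Igfbp5, a binding protein that also attaches to matrix, was highest in mesothelial cells at 9637 ± 1708 CPM (n = 5). FBs held 7634 ± 1692 CPM (n = 6), with 8876 and 8314 CPM in the young and 9167, 5319, 8466 and 5659 CPM in the old libraries in order of age. Lymphatic ECs held 8077 and 4630.4 CPM at 27 and 28 months, a range that overlapped that of FBs. Between these types and the next, the blood ECs at 466 ± 341 CPM, the ranges did not overlap. In SMCs, at 0 to 642 CPM, only the 24 month library was above its near-empty barcodes. Igfbp5 thus separated lymphatic from blood ECs in both libraries that held enough of the former.

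Igfbp6, which prefers IGF2 as its ligand, was highest in mesothelial cells at 4006 ± 1558 CPM (n = 5) and next in FBs at 1142 ± 482 CPM (n = 6). The young FBs held 1675 and 1338 CPM and the old 1667, 583, 862 and 725 CPM in order of age. Ranges of mesothelial cells (1564 to 5761 CPM) and FBs overlapped, but mesothelial cells stood above FBs in each of the 5 libraries that held both. Lymphatic ECs held 354 and 55.3 CPM. In blood ECs, airway cells, B cells and perivascular MΦs each library was at or below its near-empty level.

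Igfbp4, a binding protein cleaved by the protease PAPP-A, was highest in FBs, at 2208 ± 346 CPM (n = 6). The FB range (1768 to 2820 CPM) did not overlap that of any other type. ECs held 942 ± 282 CPM (n = 6) and mesothelial cells 875 ± 401 CPM (n = 5), which overlapped. SMCs, at 138 ± 113 CPM, were above the near-empty level in 1 of 6 libraries.

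Igfbp7 was the binding protein of the media. SMCs held 3975 and 2098 CPM in the young libraries and 2491, 535, 2070 and 2582 CPM in the old ones in order of age. The low value is that of the 10 cells of 24 months; the other 5 lay above every library of every other type. FBs followed at 711 ± 181 CPM (n = 6) and mesothelial cells at 478 ± 123 CPM (n = 5), and these ranges overlapped. Blood ECs as a whole held 182 ± 119 CPM, above the near-empty level in 3 of 6 libraries.

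Igfbp2 and Igfbp3 were scarce. Igfbp2, which binds both IGFs, was found in SMCs, with 95 UMIs (192 CPM) at 20 months, 1031 (47.3 CPM) at 27 months and 300 (48.3 CPM) at 28 months, and no count in the other 3 libraries. In every other type it was at most 10.7 CPM. Igfbp3, the main carrier of IGFs in serum, was highest in FBs at 93.1 ± 69.1 CPM (n = 6), with 150.0 and 0 CPM in the young and 97.4, 84.0, 39.5 and 188 CPM in the old libraries in order of age. The FB range overlapped those of lymphatic ECs (6.33 and 78.3 CPM) and mesothelial cells (28.3 ± 11.2 CPM, n = 5).

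**Figure D1:**
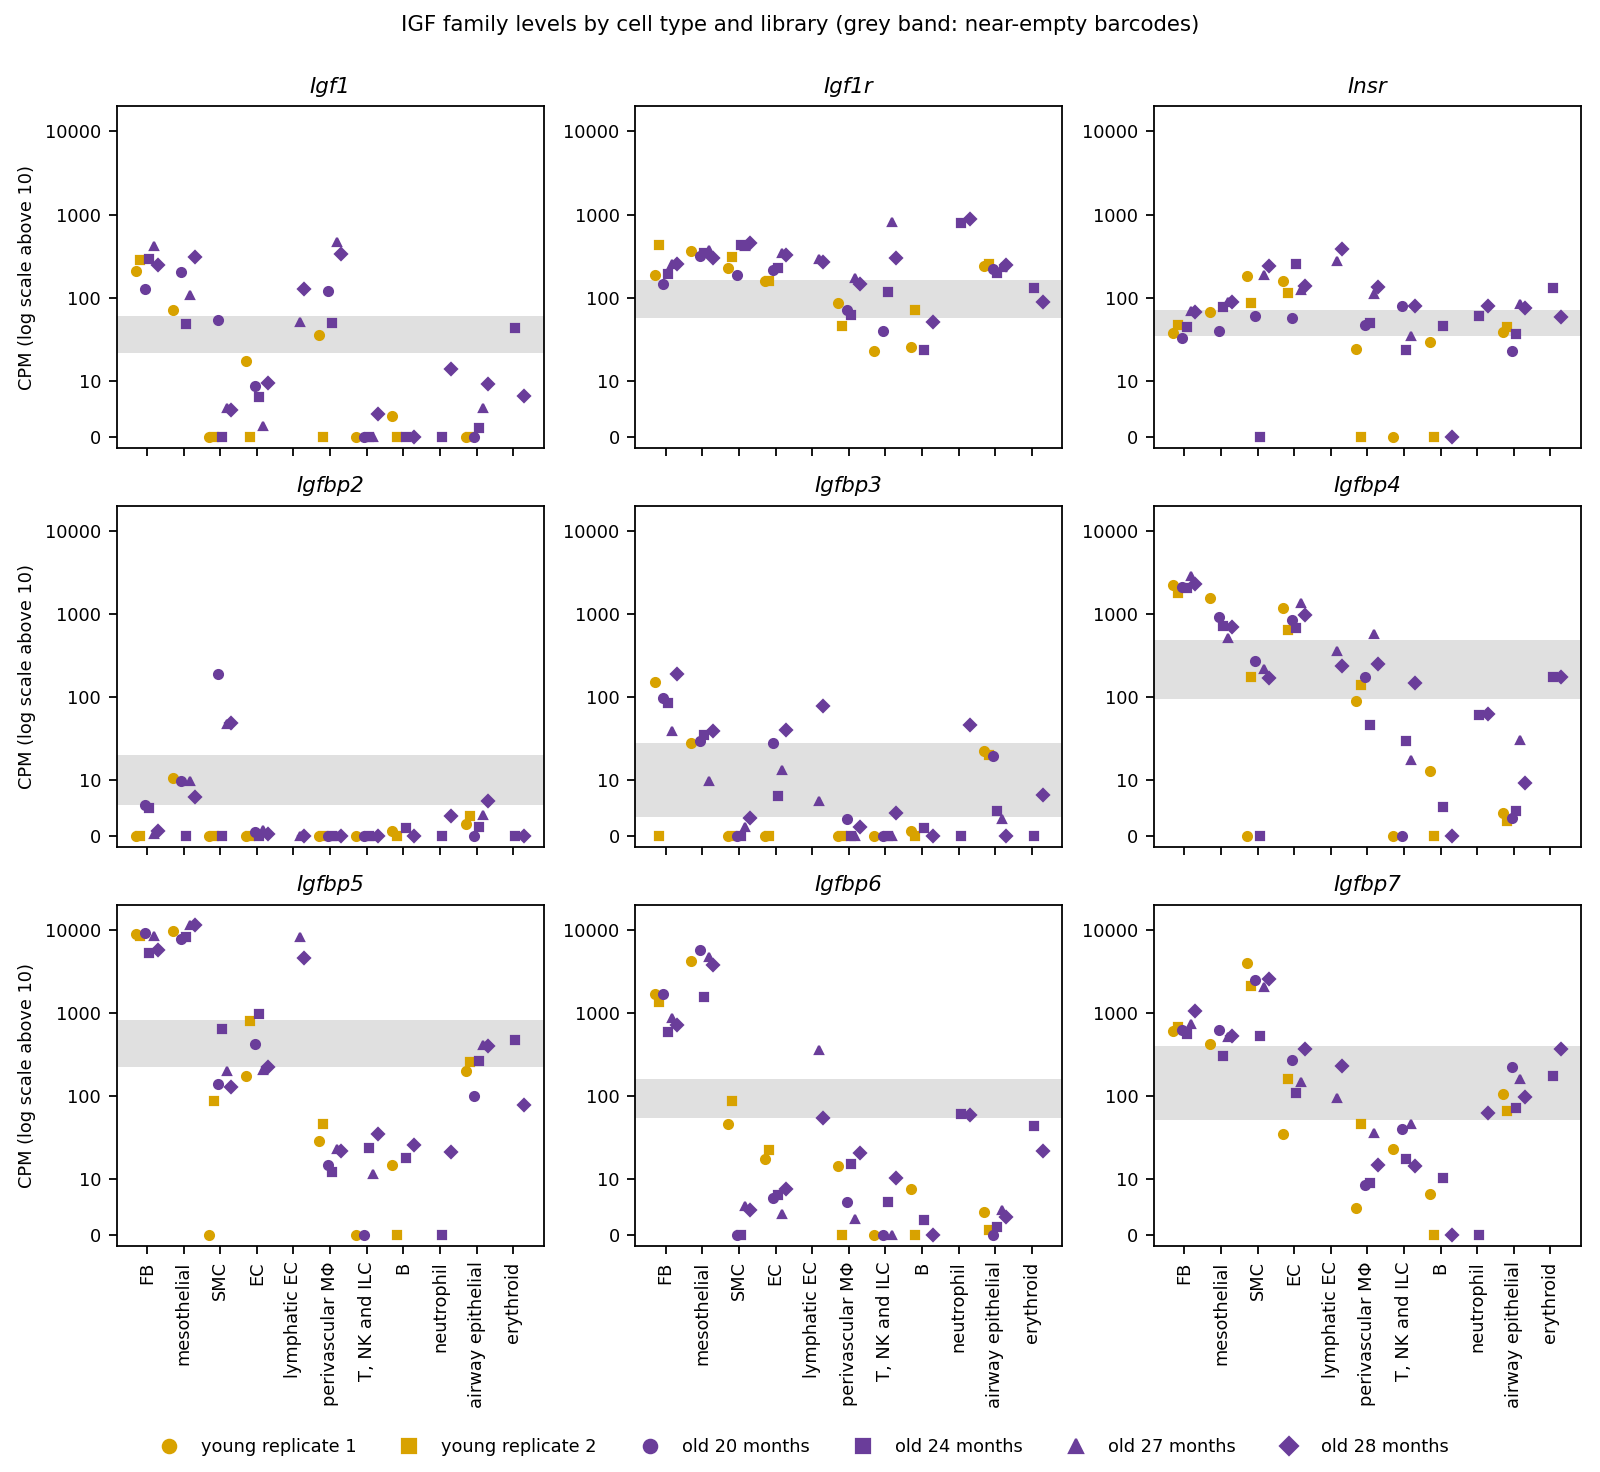
Level of 9 members (CPM, log scale above 10) in each cell type, 1 point per library with at least 10 cells; young libraries are gold, old ones purple, and the grey band spans the near-empty barcodes of the 6 libraries. Igfbp5 and Igfbp6 stand far above the band in FBs and mesothelial cells, Igfbp4 in FBs, ECs and mesothelial cells, and Igfbp7 in SMCs, where the lowest point (535 CPM) is the 24 month library of 10 cells.

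Some types were not uniform for the family. Perivascular MΦs fell into cluster 6, led by Ccl4, Cxcl2 and Il1b, cluster 9, led by Cd209f, Folr2 and Clec10a, and cluster 26, which was nearly all of the 20 month library. Cluster 9 held 467 and 345 CPM of Igf1 at 27 and 28 months, and cluster 26 held 137 CPM. Cluster 6 held 34.0 and 0 CPM in the young libraries and 41.1, 37.8, 292 and 81.5 CPM in the old ones in order of age, the value at 27 months resting on 3 UMIs. In the libraries of 3, 20 and 24 months, cluster 6 was within or below the near-empty range. Of the young MΦs, 430 of 438 were in cluster 6, and of the old MΦs 368 of 1131. Of the 10 perivascular MΦ markers, 5 were raised in cluster 6, 10 in cluster 9 and 8 in cluster 26. The name perivascular MΦ is thus weakest for cluster 6. These clusters are described without a test, since the clustering used the other genes of the same cells.

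Blood ECs divided in the same descriptive way. Cluster 20, led by Gpihbp1, Tcf15 and Cd300lg, genes known from capillaries, held 1046 and 1443 CPM of Igfbp7 at 27 and 28 months. Clusters 3 and 7, led by Cytl1 and Vwf and by Acer2, Clec14a and Gja5, held 29.8 and 71.3 CPM of it at 27 months and 138 and 164 CPM at 28 months. Igfbp4 ran the other way, with 23.2 and 127 CPM in cluster 20 against 1520.0 and 1457 CPM in clusters 3 and 7 at 27 months and 853 and 1127 CPM at 28 months. Igf1r was lowest in cluster 3, at 59.6 CPM (2 UMIs) and 165 CPM at 27 and 28 months, against 465 and 321 CPM in cluster 20 and 343 and 336 CPM in cluster 7. The split of the binding proteins was seen in both libraries where cluster 20 held at least 10 cells.

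**Figure D2:**
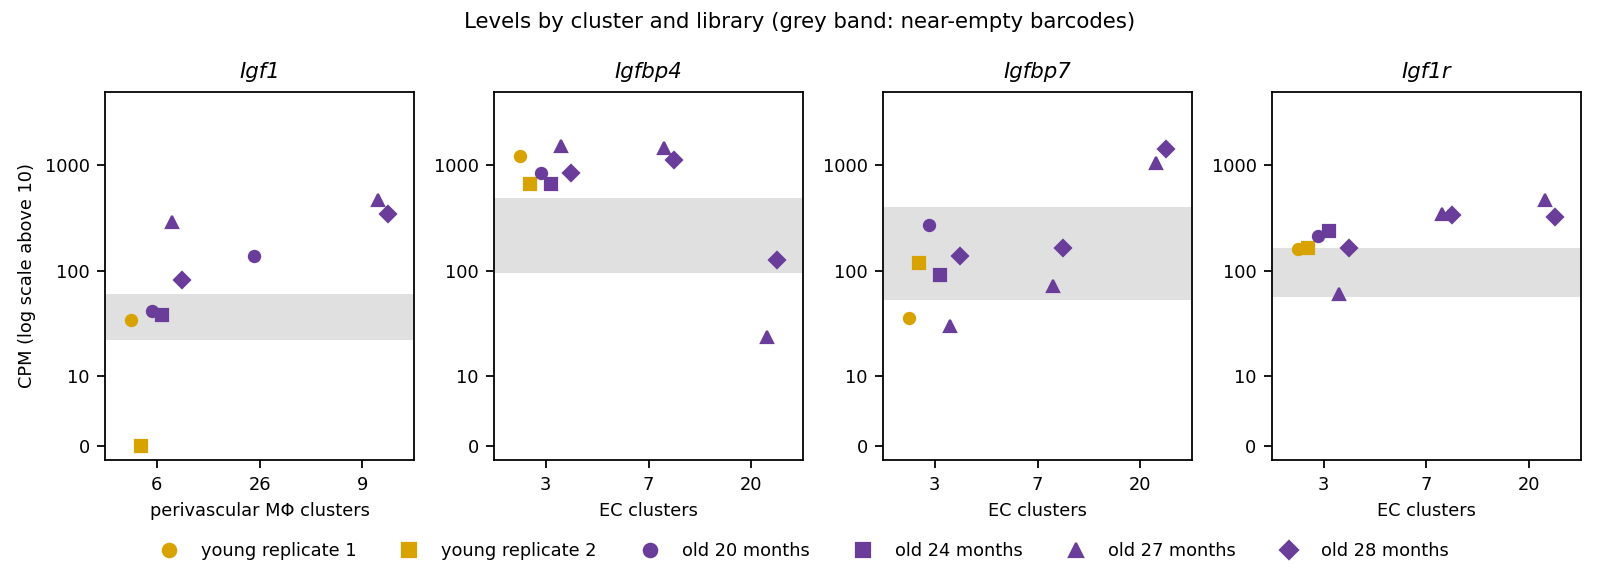
Levels (CPM, log scale above 10) by cluster for Igf1 in perivascular MΦs and for Igfbp4, Igfbp7 and Igf1r in ECs, 1 point per library with at least 10 cells; the grey band spans the near-empty barcodes. Igf1 lies at 345 and 467 CPM in cluster 9. In cluster 6 it lies above the band at 27 and 28 months and within or below it in the other libraries. Igfbp4 and Igfbp7 exchange places between clusters 3 and 7 and cluster 20.

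The next comparison asked how the family differs between FBs with and without Pi16, a gene of adventitial FBs. A cell with at least 1 Pi16 UMI was called Pi16-positive. Young libraries held 7 and 3 negative cells, too few, so the comparison rests on the 4 old libraries, with 105, 134, 412 and 641 positive and 15, 83, 83 and 175 negative cells in order of age. Classes were paired within a library, and all genes were tested with edgeR's quasi-likelihood test with Benjamini-Hochberg adjustment. Of 6353 genes, 9.81% were called, 5.15% higher and 4.66% lower in Pi16-positive FBs, and 13.4% were higher and 9.66% lower in every library. Of the 10 members 7 passed the gene filter, and 3 of them were called, Igfbp6 higher and Igf1 and Igfbp7 lower; the median log2 fold change of the 7 was -0.11 beside 0.01 over all genes.

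Igf1 was lower in the Pi16-positive FBs. They held 108, 174, 323 and 212 CPM at 20, 24, 27 and 28 months, and the Pi16-negative FBs of the same libraries held 364, 531, 1058 and 464 CPM. The negative class was higher in 4 of 4 libraries, and the lowest negative value exceeded the highest positive one. The log2 fold change was -1.46 ± 0.20 (SE, edgeR adjusted p = 1.66e-09). Summed perivascular MΦ markers were also higher in the negative class, at 244 to 1173 CPM against 142 to 457 CPM in the positive class; in the MΦs themselves they stood at 2738 to 26740 CPM in the old libraries. In the negative class 3 to 9 of the 10 markers had a count, with C1qa and C1qb at 0 at 20 and 24 months. Igf1 in the MΦs of the same libraries was 122, 49.4, 466 and 338 CPM in order of age. The part of MΦ RNA in the Igf1 difference between the FB classes was not tested.

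Igfbp6 was higher in the Pi16-positive FBs. They held 1796, 762, 934 and 821 CPM, against 109, 244, 393 and 217 CPM in the negative FBs, and the classes did not overlap. The 109 CPM at 20 months rested on 3 UMIs in 15 cells and lay below the near-empty level of that library (143.5 CPM). The log2 fold change was 1.85 ± 0.23 (edgeR adjusted p = 4.37e-08), higher in 4 of 4 libraries. Igfbp7 went the other way, with 560.4, 415, 701 and 973 CPM in the positive and 1491, 817, 1016 and 1502 CPM in the negative class. It was lower in the positive class in 4 of 4 libraries although the ranges overlapped, with a log2 fold change of -0.76 ± 0.18 (edgeR adjusted p = 0.000635). Summed SMC markers were also higher in the negative class in 4 of 4 libraries, at 218, 201, 1097 and 392 CPM against 202, 121, 384 and 232 CPM, with 4 to 10 of the 10 markers found, where SMCs themselves held 29740 to 46670 CPM outside the 24 month library. Their part in the result was not tested.

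Igfbp5 showed the widest gap of the tested members and still missed the threshold. Pi16-positive FBs held 9909, 7032, 9682 and 6651 CPM and negative FBs 218, 2065, 473 and 414 CPM. The positive class was 45.4, 3.41, 20.5 and 16.1 times higher in order of age. In 3 of the 4 libraries the negative class was below the near-empty barcodes of its own library (608, 593 and 827 CPM at 20, 27 and 28 months). The log2 fold change was 3.72 ± 0.72, with an unadjusted p of 0.00972 and an edgeR adjusted p of 0.0859. It passed without the 24 month library, where the gap was smallest (4.37, edgeR adjusted p = 6.69e-12), and without the 20 month library (3.41, adjusted p = 0.00993).

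Igfbp4 and Insr passed before adjustment only, where 18.4% of all genes had an unadjusted p under 0.05. Igfbp4 had a log2 fold change of 0.44 ± 0.17 (edgeR adjusted p = 0.0891) and was higher in the positive class in 3 of 4 libraries; without the 28 month library it passed (0.56, edgeR adjusted p = 0.0214). Insr had -0.51 ± 0.22 (edgeR adjusted p = 0.165), with the negative class higher in 3 of 4 libraries. Igf1r, at 211 ± 55.3 CPM in the positive and 247 ± 51.9 CPM in the negative class (SD, n = 4), gave -0.11 ± 0.20 (edgeR adjusted p = 0.887).

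Igfbp3 did not pass the gene filter and is named after its values were seen. Pi16-negative FBs held 982, 201, 226 and 777 CPM, and positive FBs 24.1, 22.6, 11.1 and 76.3 CPM, so that the classes did not overlap. The positive class rested on 8, 3, 28 and 339 UMIs of Igfbp3 in order of age. Because it was picked on these values, no p-value is given for it. Both classes held all 10 FB markers, summed to 14870 to 25410 CPM in the negative and 18040 to 24910 CPM in the positive class. Erythroid markers summed to 31140 CPM (negative) and 20270 CPM (positive) at 24 months, above the FB markers of these cells (18570 and 18040 CPM). At 28 months they summed to 9836 and 7427 CPM, and at 20 and 27 months to at most 27.1 CPM. Pericyte markers were higher in the negative class in 4 of 4 libraries (186 to 951 CPM against 128 to 393 CPM), with 4 to 9 of the 10 markers found against 2 to 10, as were glia markers (400.0 to 808 CPM against 250.1 to 649 CPM) and chondrocyte markers (208 to 314 CPM against 66.8 to 234 CPM). Their part in the result was not tested.

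The depth of the classes differed too. Median UMIs per cell were 2919, 898.5, 6061 and 6764 in the positive and 1991, 753, 4822 and 4776 in the negative class. With each cell thinned to 500 UMIs, Igf1 (log2 fold change -1.15), Igfbp6 (1.25) and Igfbp7 (-0.49) were still called. The classes were set anew from the thinned counts, so they were not the same cells. Of the Pi16-positive cells, 79.0%, 82.8%, 64.6% and 54.0% kept a Pi16 UMI at 20, 24, 27 and 28 months, and the rest counted as negative. In clusters formed only from barcodes with at least 1000 UMIs and 500 genes none of these 3 passed (edgeR adjusted p = 0.164, 0.341 and 0.071, with the same signs), while Igfbp5 did (adjusted p = 0.0058); there the SMCs of 20 months fell in the FB cluster. Without the library block only Igfbp5 and Igfbp6 of the members passed (edgeR adjusted p = 0.044 and 0.0411).

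**Figure D3:**
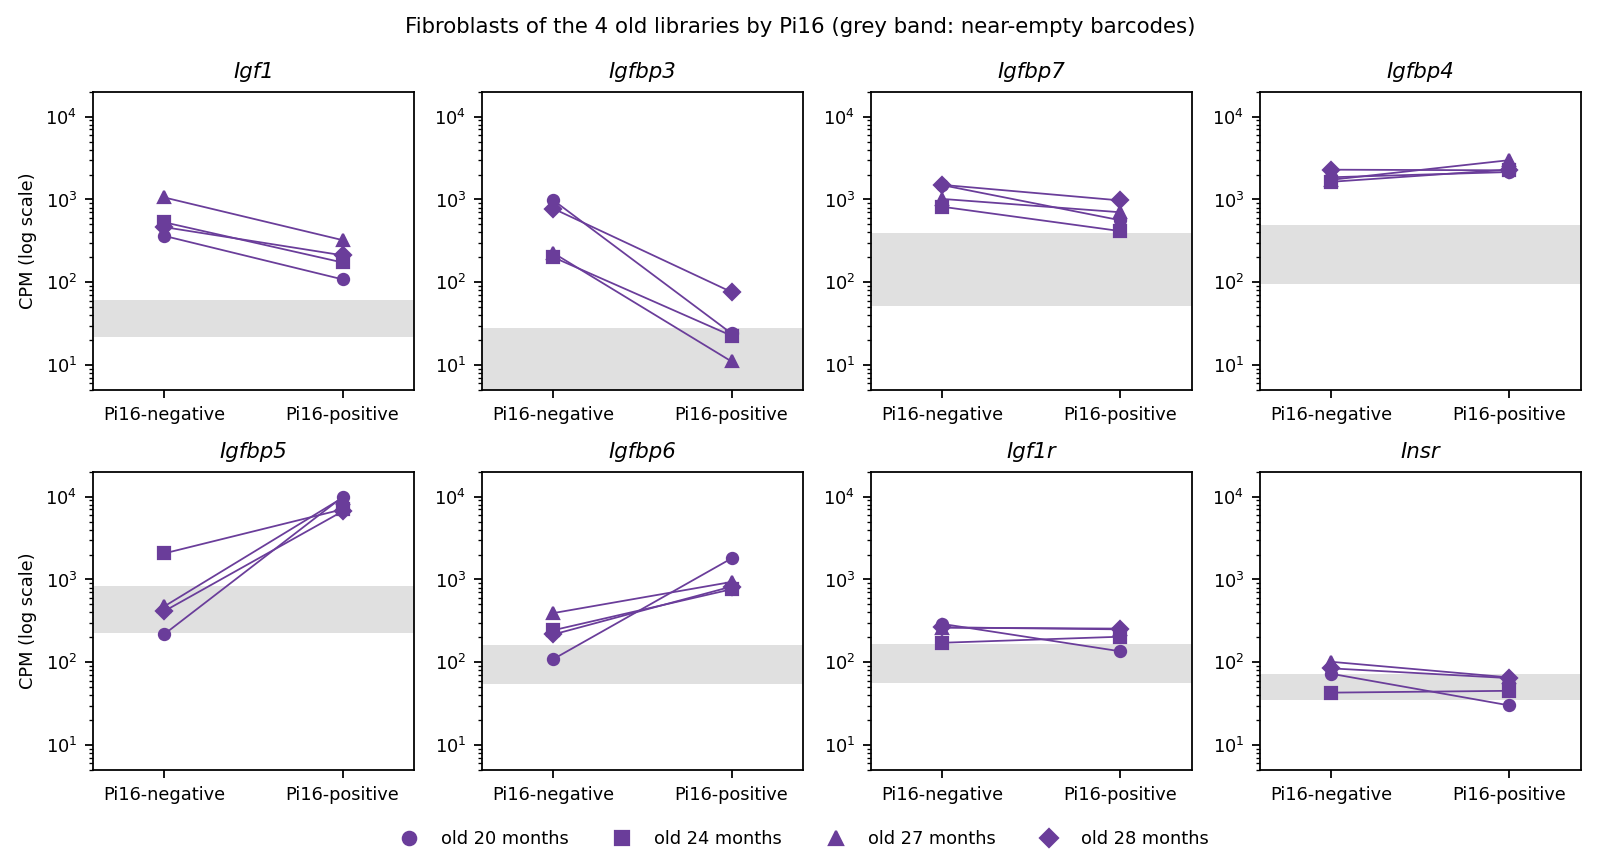
Levels (CPM, log scale) of 8 members in Pi16-negative and Pi16-positive FBs, with a line joining the classes of each of the 4 old libraries and a grey band for the near-empty barcodes. From the negative to the positive class, Igf1, Igfbp3 and Igfbp7 go down and Igfbp5 and Igfbp6 go up along all 4 lines, while Igf1r stays between 136 and 291 CPM.

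The study's main comparison, old against young, was run in each cell type with libraries as replicates. FBs, SMCs, ECs, perivascular MΦs, airway cells and B cells had enough libraries of both ages for a fit, as did Pi16-positive FBs. In B cells no member passed the gene filter, and lymphatic ECs, mesothelial cells, neutrophils and T, NK and ILC cells had no fit. None of the members tested in the other fits was called, while the share of all genes called was 0.0456% in FBs, 0.0851% in SMCs, 0.398% in B cells, 0.0444% in Pi16-positive FBs and 0 of 5870, 5811 and 8250 genes in ECs, MΦs and airway cells. Before adjustment, 5.71%, 4.56% and 6.12% of the genes of these last 3 types (335, 265 and 505 genes) and 5.67% of SMC genes had p under 0.05. DESeq2 called no member either, and called 1 gene in ECs, 1 in MΦs and 0 in airway cells. The young group was small in libraries and cells: young FBs numbered 91 and 29, and young SMCs 24 and 33.

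Perivascular MΦs, a class of unlike makeup in the young and old groups, gave the largest difference. Igf1 stood at 36.0 and 0 CPM in the young libraries, from 15 and 0 UMIs, and at 122, 49.4, 466 and 338 CPM in the old ones in order of age. Every old library lay above the young ones, an order that 11.3% of the 5811 genes showed in MΦs. The log2 fold change was 2.96 ± 1.01, with an unadjusted p of 0.0139 and an edgeR adjusted p of 0.917. The 0 of young replicate 2 was counted in 21705 UMIs, which allows up to 138 CPM. Young replicate 1, at 36.0 CPM, was close to its near-empty barcodes (34.8 CPM).

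The part of the makeup of the MΦ class in this difference was not tested. A fit of cluster 6 alone was chosen after the clusters were seen, with 19 and 10 of its cells at 20 and 27 months. With cluster 6 alone, which held nearly all young MΦs, the log2 fold change of Igf1 was 1.06 (unadjusted p = 0.195, edgeR adjusted p = 0.999). With a term for the 3 barcode-sharing libraries it was 0.89. Both young libraries carry that term, so this value sets the 24 month library alone against them. Insr in MΦs was 24.0 and 0 CPM in the young and 47.6, 49.4, 111 and 136 CPM in the old libraries. Both young values and that of 20 months lay below the near-empty barcodes of their library (72.4, 59.3 and 49.9 CPM). Its log2 fold change was 2.01 ± 0.75 (unadjusted p = 0.021, edgeR adjusted p = 0.917), and 1.57 with cluster 6 alone. The remaining MΦ members tested, Igf1r and Igfbp4, gave 0.58 and 1.38 on the log2 scale.

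In ECs, Igf1r was 158 and 160 CPM in the young and 214, 230.5, 344 and 329 CPM in the old libraries. Every old library lay above the young ones, as for 11.9% of the genes tested in ECs. The log2 fold change of 0.78 ± 0.48 did not pass (unadjusted p = 0.124, edgeR adjusted p = 0.912). The 2 oldest libraries held most cells of clusters 7 and 20, in which Igf1r was 321 to 465 CPM, and the young ECs were nearly all in cluster 3. So were the ECs of the 20 and 24 month libraries, with 667 of 672 and 190 of 196 cells. The part of this makeup in the Igf1r difference was not tested. The other 4 members tested in ECs had log2 fold changes from -0.04 to 1.27.

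In SMCs, Igfbp5 was 0 and 87.4 CPM in the young and 139, 642, 203 and 128 CPM in the old libraries. The log2 fold change was 2.37 ± 1.21 (unadjusted p = 0.0508, edgeR adjusted p = 0.781), and every old library lay above the young ones, as for 9.43% of the genes in SMCs. In 5 of these 6 libraries the level was below the near-empty barcodes, and without the 24 month library the log2 fold change was 2.18 (edgeR adjusted p = 0.607). Igfbp2 in SMCs had an unadjusted p of 0.0101 (edgeR adjusted p = 0.781), but no fold can be given: 0 of 44767 young UMIs allows up to 67.0 CPM, more than the 47.3 and 48.3 CPM of 2 of the old libraries. The other 4 members tested in SMCs had log2 fold changes from -0.26 to 1.49, beside a median of 0.46 over all SMC genes, or 0.13 without TMM scaling.

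FBs, which hold the most Igf1, Igfbp4 and much Igfbp5, gave smaller values. The 7 members tested had log2 fold changes from -0.53 to 0.52 (unadjusted p of 0.300 or more), beside a median of 0.26 over all genes, and every pair of age groups overlapped. Of the young FBs, 112 of 120 lay in cluster 13, led by Tnfaip6, Cxcl1 and Ptx3, and of the old FBs 397 of 1648, most of the rest being in cluster 1, led by Scara5, Abca8a and Svep1. In Pi16-positive FBs alone the 7 values ran from -0.44 to 0.58, and in airway cells the 4 members tested ran from -0.29 to 0.55.

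**Figure D4:**
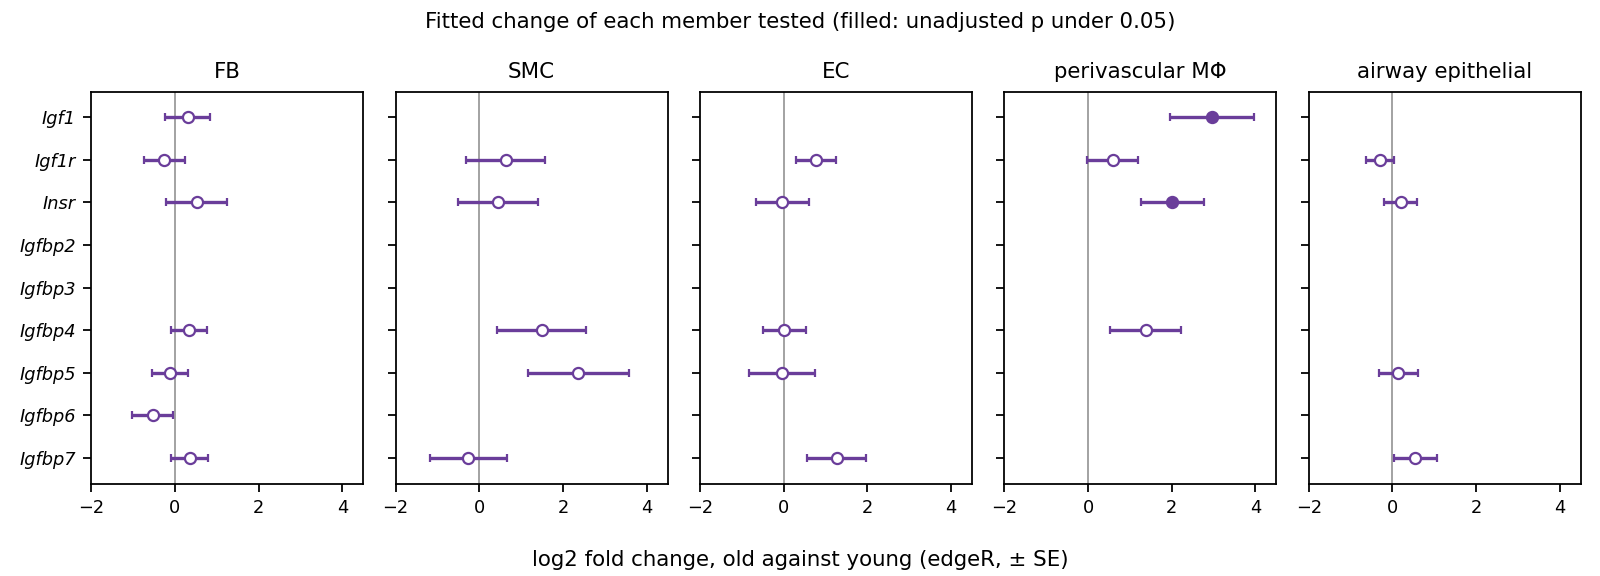
Fitted log2 fold change, old against young, of each member tested in 5 cell types (points, with SE as bars); filled points have an unadjusted p under 0.05, and Igfbp2 in SMCs is left out because the young libraries had no count. Igf1 and Insr in perivascular MΦs, at 2.96 and 2.01, are the filled points, and none passed after adjustment.

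The study multiplied ligand by receptor expression between cells on imputed values. Igf1-Igf1r and Igf1-Insr were among the pairs it reported as raised with age from perivascular MΦs to FBs and SMCs. Its test was a Wilcoxon rank sum test on cell pairs, whereas libraries are the replicates below. Here products were taken per library without imputation, with perivascular MΦs as senders and, added here, FBs as senders, as the mean log level per 10000 UMIs of Igf1 in the sender times that of the receptor in the receiver. For Igf1 of perivascular MΦs and Igf1r of FBs, the products were 0.0228 and 0 in the young and 0.168, 0.0456, 1.30 and 1.00 in the old libraries. For Igf1 of MΦs and Igf1r of SMCs the products were 0.0312 and 0 in the young and 0.213, 0.0880, 1.95 and 1.52 in the old. The SMCs behind the 0.0880 at 24 months were 10 cells with 4 UMIs of Igf1r, which held more alveolar than SMC markers. All old values lay above the young ones in both pairs, with an exact two-sided permutation p of 0.133, the smallest that 2 against 4 libraries can give. Of the 8 pairs examined, 5 reached that p, and the other 3 had p of 0.4 to 0.667; adjusted over the 8 pairs no p was under 0.213. The 2 deepest libraries held the highest value in each of the 8 pairs, and the mean log level rises with depth per cell. Of the young MΦ senders, 430 of 438 were in cluster 6, where 5 of 10 perivascular MΦ markers were raised. With each cell thinned to 500 UMIs, the old minus young difference went from 0.618 to 0.113 for MΦ Igf1 with FB Igf1r and from 0.928 to 0.187 with SMC Igf1r. The separate parts of depth, makeup and age in these differences were not tested.

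The genes that carry or tune the IGF signal were followed from 50 listed genes: substrates and adaptors, PI3K and Akt, the growth hormone axis, proteases that cut binding proteins, other ligands and receptors, and partners of Igf2. In the Pi16 split 31 were tested, of which 1 was called higher and 5 lower in Pi16-positive FBs, beside 5.15% and 4.66% of all genes. The gene called higher was Htra3, a secreted serine protease of the HtrA family, with 200.7 to 436 CPM in the negative and 482 to 566 CPM in the positive class (log2 fold change 0.89, edgeR adjusted p = 0.000348). The genes called lower were the growth hormone receptor Ghr (log2 fold change -0.61, edgeR adjusted p = 0.0231), its signal transducer Stat5b (-0.65, adjusted p = 0.0188), the receptor substrates Irs1 (-0.65, adjusted p = 0.0388) and Irs2 (-0.77, adjusted p = 0.00646), and the PI3K regulatory subunit Pik3r1 (-0.95, adjusted p = 6.76e-05). Ghr was lower in the positive class in 4 of 4 libraries, at 142 to 310 CPM against 327 to 444 CPM. Stat5b and Pik3r1 were also lower in every library, while Irs1 and Irs2 were not. Grb10 and Tsc2 were among those that passed before adjustment only, at 0.40 and 0.81 on the log2 scale.

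Across ages none of the tested genes of these lists was called, out of 31 in FBs, 34 in SMCs, 30 in ECs, 22 in MΦs, 33 in airway cells and 9 in B cells. The low recovery of 4-fold changes in simulated data limits these fits here too. Genes of the lists with an unadjusted p under 0.05 were few. Akt1 in FBs was 25 and 0 CPM in the young and 54.4 to 81.7 CPM in the old libraries (log2 fold change 1.89, edgeR adjusted p = 0.731). Foxo3 in MΦs was 33.6 and 0 CPM in the young and 61.7 to 132 CPM in the old (1.85, edgeR adjusted p = 0.917). A count of 0 in young replicate 2 allows up to 143 CPM in FBs and 138 CPM in MΦs, more than every old value of these genes. Tsc1 in FBs and Pdpk1 in SMCs had no young count, and Adamts1 in airway cells went from 40.4 and 33.6 CPM to between 0 and 22.2 CPM (-1.57, edgeR adjusted p = 0.772).

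The levels of these genes mirrored the cell types. Among the proteases, Adamts1 and Htra1 were highest in ECs (867 ± 451 and 244 ± 102 CPM) and in SMCs (223 ± 213 and 225 ± 73.4 CPM), and Htra3 and Adamts1 in FBs (473 ± 58.4 and 422 ± 178 CPM; n = 6 each). Ghr led the growth hormone axis in FBs (289.9 ± 118 CPM), ECs (278 ± 132 CPM) and SMCs (125 ± 83.7 CPM), and Jak2 in MΦs (98.5 ± 46.7 CPM). Of the adaptors, Grb10 led in FBs (194 ± 19.2 CPM) and ECs (98.4 ± 49.9 CPM), Grb14 in SMCs (112 ± 86.2 CPM) and Grb2 in MΦs (287 ± 75.3 CPM). Igf2r, which clears IGF2, was 132 ± 27.9 CPM in ECs, 82.5 ± 21.1 CPM in FBs and 61.2 ± 41.6 CPM in SMCs. In MΦs its mean of 96.4 CPM rested on 506 CPM in a single library.

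Genes with the most similar pattern were sought over 50 profiles of library and cell type (11 types) by Pearson's r of log2(CPM + 10), among 10670 genes. The profiles share libraries and depth, so r is descriptive. Igf1 was closest to C4b (0.81), Cyp27a1 and Ifi211, and Igf1r to Rnf11 (0.73) and Pard3. Insr was closest to Scarb2 (0.82), Magi1 and Arhgap23. Among the binding proteins, Igfbp4 was closest to Thbd (0.90), Sulf2 and Fbln2, Igfbp5 to Serping1 (0.91), Prss23 and Nbl1, and Igfbp6 to Bicc1 (0.91), Gas1 and Gpc3. Igfbp7 was closest to Cald1 (0.90), Snhg18 and Fhl1, and Igfbp2 to Des (0.75), Hspb2 and Mark1, where Cald1 and Des are muscle genes. Igfbp3 was closest to Ism1 (0.78), Angptl4 and Abca8b.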

How the data were processed

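Libraries were made by the study with droplet 3′ single cell chemistry (Chromium, version 3.1) from 6 mice. The authors trimmed reads with Cutadapt and mapped and counted them with STARsolo on GRCm38.p6 (GENCODE release M22 by the study's methods; versions of the tools are not given in the sources used here), and deposited raw UMI counts per gene and barcode. The age of each library was taken from its labels, and replicates were numbered in the order of the samples. A further young mouse of the study was not analysed here.

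Barcodes with at least 500 UMIs, 300 genes and at most 20% mitochondrial counts were kept (935 to 4067 per library). Of these, 9 to 115 per library were left out as doublets by scrublet (scanpy 1.11.5). Its automatic call marked 0% to 0.22% of barcodes in young replicate 1 and at 20, 24 and 27 months. There a set rate of 0.8% per 1000 barcodes was used instead. Cells were clustered (2000 variable genes, 40 components, Leiden resolution 1) without members and pathway genes, and clusters were named from marker lists. Counts were summed per library and type with at least 10 cells and fitted with edgeR 4.0.16 (TMM, robust quasi-likelihood) on genes that more than 5% of the cells held in 3 or more libraries, with Benjamini-Hochberg adjustment over all genes of a fit; in the Pi16 split the library was a block, since both classes come from the same mouse. Scripts were tested on simulated data. Products used an exact permutation test.

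The members and all gene lists were chosen with earlier results of these data known. All members are named; fitted changes are given for members with an unadjusted p under 0.05 or non-overlapping age groups, and pathway genes by counts, with values for an unadjusted p under 0.05 and for the 2 highest of a list. Some genes that these rules select are not reported here. Alternatives covered DESeq2 1.42.0, other filters, scaling, thinning and left-out libraries; a fit of 1 cluster alone was chosen after the clusters were seen. UMIs per library (6355125 to 50436562) limit precision, and floors of 3 counts cover counting error only. Each library is 1 mouse, so p-values across ages are set against the spread between mice. In the Pi16 split the library is a block, so p-values there concern differences within mice. They rest on 4 libraries and on variance estimates shared across genes, so very small values do not reflect many mice.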

Additional observations from a re-analysis of the deposited data

Results flagged for a closer look

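Among 78 groups of 4 old libraries, 5 held a library far from the other 3 for its spread, where chance flags about 1 in 20 groups. In SMCs, the 20 month library stood apart for Igf1, at 54.47 CPM with the next library at 5.229 CPM, and for Igf1r, at 187.6 CPM as the lowest with the next at 421.6 CPM. Its SMCs formed a cluster of their own. Igfbp5 in SMCs was 642.5 CPM at 24 months, from the 10 cells of that library, which held more alveolar than SMC markers, with the next library at 203.2 CPM. In T, NK and ILC cells, the 28 month library held Igf1 and Igfbp3 at 4.149 CPM each, and the other 3 libraries had no count of either. Each of these values rested on 2 UMIs and lay below the near-empty level of its library (49.4 CPM for Igf1 and 27.7 CPM for Igfbp3).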

How the results depend on the processing

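Counts of members called were within 1.5 times the main count in 129 of the alternative fits. In the Pi16 split, where 3 members were called, 1 was called with at least 1000 UMIs and 500 genes (Igfbp5) and 5 without a gene filter; fewer barcodes and more genes were tested there by construction, and the cause was not tested further. Leaving out 1 library gave 3 to 4 members. Igfbp7 missed the threshold without a gene filter (edgeR adjusted p = 0.123), and Igf1 and Igfbp7 missed it without the library block (adjusted p = 0.156 and 0.71), which called 2 members. The adjusted p of Igfbp5 ran from 6.69e-12 to 0.356 over its alternatives. Across ages, every alternative run called 0 members in each cell type, left-out libraries included (0 to 0). The main fits recovered few 4-fold changes in simulated data, which limits what this absence of calls can show. In perivascular MΦs the adjusted p of Igf1 ran from 0.151, without a gene filter, to 0.9998. The log2 fold change was 10.88 without young replicate 1, where the remaining young library has no count, and no bound can be read from it. The median of all SMC genes moved from 0.46 with TMM to 0.13 without it, and that of airway genes from 0.02 to 0.19. The 92 alternatives of the products had the sign of the main value, but thinning to 500 UMIs made every difference smaller: that of FB Igf1 with FB Igf1r went from 0.31 to 0.000132 and that of FB Igf1 with SMC Insr from 0.278 to 0.0152. With the barcode-sharing libraries as a term, Igfbp2 in SMCs gave no value. No paired analysis was possible between ages because young and old libraries come from different mice and the labels carry no replicate numbers, those used here being in accession order. Young libraries of 24 and 33 SMCs and of 91 and 29 FBs limit what depth can show.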
